A study of Mus musculus with 48 samples.

Results

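The change from ZT0 to ZT12 was examined in epidermal stem cells (EpSCs) of aged mice. The rule was the label: the 4 arrays of aged animals at ZT12 were set against the 4 at ZT0, which gives 8 of the 48 arrays of the series. ZT is zeitgeber time, with ZT0 by convention at lights on and ZT12 at lights off. All groups used here were wild-type female C57B6/J mice, with no treatment, transgene or deletion named in the labels. Aged mice were 102 to 116 weeks old and young mice, used as the comparison, were 8 weeks old. In the series, mice of both ages were sampled every 4 hours over the day, 4 mice per age and time. RNA of each sample was amplified and measured on a 1-colour Affymetrix array, and a value below is the log2 level of a probe set, so that a difference of 1 is a doubling. The isolation of the cells is not described in the sources used here.

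The mammalian clock is a loop of transcription. Bmal1 (Arntl) with Clock or Npas2 binds E-boxes and switches on the Per and Cry genes, whose proteins repress their own activators, while Nr1d1 and Nr1d2 repress and Rora activates Arntl through shared sites. The loop also drives Dbp, Tef and Hlf, which act on D-boxes of further genes. The interfollicular epidermis and the hair follicle are kept by stem cells whose divisions are timed by this clock, and cells licensed for DNA replication enter S phase under E2F factors before the mitotic programme is switched on.

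The labelled cell type was checked against its markers. The 8 basal keratinocyte markers, among them keratins 5 and 14 and Trp63, had a mean of 11.6 to 11.7 in all 8 aged arrays. Endothelial markers had a mean of 3.70 to 4.05 over 8 genes, 5 of them under the limit for dim genes (3.96), and fibroblast markers a mean of 4.20 to 4.53 over 10 genes, 4 of them dim. Suprabasal markers had a mean of 8.73 to 9.01 at ZT0 and 8.75 to 8.99 at ZT12, far above the dim limit. Array medians of all 48 arrays lay between 4.78 and 5.04. The array of aged ZT12 replicate 1 stood apart: its residual SD was 0.350 against a median of 0.180 over all arrays, and its mean correlation with its own group was the lowest of the 48, at 0.972. The background of high-GC probes was 5.66 ± 0.24 at ZT0 and 5.96 ± 0.21 at ZT12 (SD, n = 4 each).

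Of 12823 genes tested, 147 were higher (1.15%) and 101 were lower (0.788%) at ZT12 than at ZT0 in aged cells (limma, 2-sided, adjusted p under 0.05), together 248 or 1.93%. The surplus of risers depended on the scaling: 133 were higher and 131 lower with arrays centred on their median, and 161 and 145 with cyclic loess. The unadjusted p was under 0.05 for 1817 genes. The risers had a median change of 0.69 and the fallers of -0.75, against 0.0039 over all genes, and 25 rose and 23 fell at least 2-fold. All 4 ZT12 arrays lay above all 4 ZT0 arrays in 95 of the 147 risers, and below them in 54 of the 101 fallers. The same separation was seen in 2.78% and 2.18% of all genes tested. The calls came from these same arrays, so the separation among them is no independent support. The number of calls depended on single arrays. Without ZT12 replicate 1 it was 713 and without ZT0 replicate 4 it was 566, while it was 145, 203 and 90 without ZT0 replicates 1, 2 and 3, and 105, 194 and 140 without ZT12 replicates 2, 3 and 4. A fit of the 8 arrays alone, with few degrees of freedom for the spread, called 32 genes, 30 of them among the 248.

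The clock showed the largest rises. Among 16 clock genes tested, 8 rose (Per3, Dbp, Tef, Ciart, Nr1d2, Per2, Cry2 and Hlf) and 2 fell (Arntl and Npas2), with a median change of 0.68; over all genes 1.15% rose and 0.788% fell, with a median of 0.0039. All ZT12 arrays lay above all ZT0 arrays in 7 of the 16 and below them in 2, against 2.78% and 2.18% of all genes. Of the other genes in the clock lists, Rorb and Bhlhe41 were dim, and Nr1d1 was not analysed here. Changes of these genes were independent of the rule, which used labels alone. In bulk RNA, fewer cells of a type and less RNA per cell cannot be told apart, which holds for every change below.

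Dbp, a D-box activator and a direct target of the clock, read 4.45, 4.83, 4.85 and 4.99 at ZT0 and 8.67, 8.25, 8.14 and 8.45 at ZT12. The lowest ZT12 array was above the highest ZT0 array by a wide margin. Its change was 3.60 (95% confidence interval 3.11 to 4.09), or 12.1-fold, with an adjusted p of 3.47e-14 in limma. Tef, of the same family, rose from 7.27, 7.70, 7.60 and 7.42 to 9.86, 9.34, 9.23 and 9.60, a 4.03-fold change, again with no overlap. Hlf, the other activator of the family, rose by 0.88 (adjusted p = 0.00108), from between 8.58 and 9.16 to between 9.48 and 9.98. Nfil3, the repressor that competes for the same D-boxes, had a change of -0.41 that did not pass the test (adjusted p = 0.145).

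Per3, a Period protein of the repressor complex, read 5.27, 5.03, 4.39 and 5.42 at ZT0 and 8.60, 9.82, 8.26 and 9.42 at ZT12. The change was 4.00 (3.30 to 4.69; adjusted p = 5.80e-11). Its size rested on the probe set: the other 4 for Per3 rose by 1.43, 1.38, 1.35 and 0.70, each with an unadjusted p at or under 3.33e-05. Per2 rose from 6.39, 6.32, 6.29 and 5.35 to 7.95, 6.90, 7.66 and 7.35, a change of 1.38 (adjusted p = 5.51e-05), and 2.59 by its other probe set. ZT0 replicate 4 was the low array of that gene, and the groups did not overlap with or without it. Per1, which also answers to glucocorticoids, had a change of 0.49 that did not pass (adjusted p = 0.178).

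Ciart, a repressor of Bmal1-Clock, read 5.19, 5.06, 5.40 and 5.36 at ZT0 and 7.01, 7.02, 6.80 and 7.07 at ZT12. Both groups were tight and well apart, and the change was 1.72 (1.42 to 2.03; adjusted p = 6.87e-11). Nr1d2, the REV-ERB beta receptor that represses Arntl, rose from 7.16, 7.27, 7.82 and 7.71 to 8.73, 9.28, 9.35 and 9.19, a change of 1.65 (adjusted p = 6.60e-10). Cry2, a cryptochrome repressor, rose by 0.97 (adjusted p = 0.00183) but its groups overlapped: ZT0 replicate 2, at 8.10, was above ZT12 replicate 3, at 7.91. Its relative Cry1 had a change of 0.07 (-0.43 to 0.58), and Bhlhe40, a further E-box repressor, of -0.23 (-0.54 to 0.07).

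Of the 4 activators tested, Npas2 and Arntl fell. Npas2, the Clock homologue, read 7.74, 7.40, 7.67 and 7.51 at ZT0 and 6.56, 6.51, 6.93 and 6.83 at ZT12. It fell by 0.88 with no overlap (adjusted p = 3.49e-05), and by 2.51 on its second probe set. Arntl, which encodes Bmal1, read 8.81, 8.83, 9.89 and 8.68 at ZT0 and 6.43, 7.35, 8.38 and 8.17 at ZT12. All ZT12 arrays were lower, but the spread was wide: the fall was 1.47 (adjusted p = 0.0133), and the adjusted p became 0.133 without ZT0 replicate 3, 0.0502 without ZT12 replicate 1 and 0.068 without ZT12 replicate 2. The second Arntl probe set fell by 0.98. Clock (-0.22) and Rora (-0.20) did not pass the test (adjusted p = 0.584 and 0.482).

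**Figure D1:**
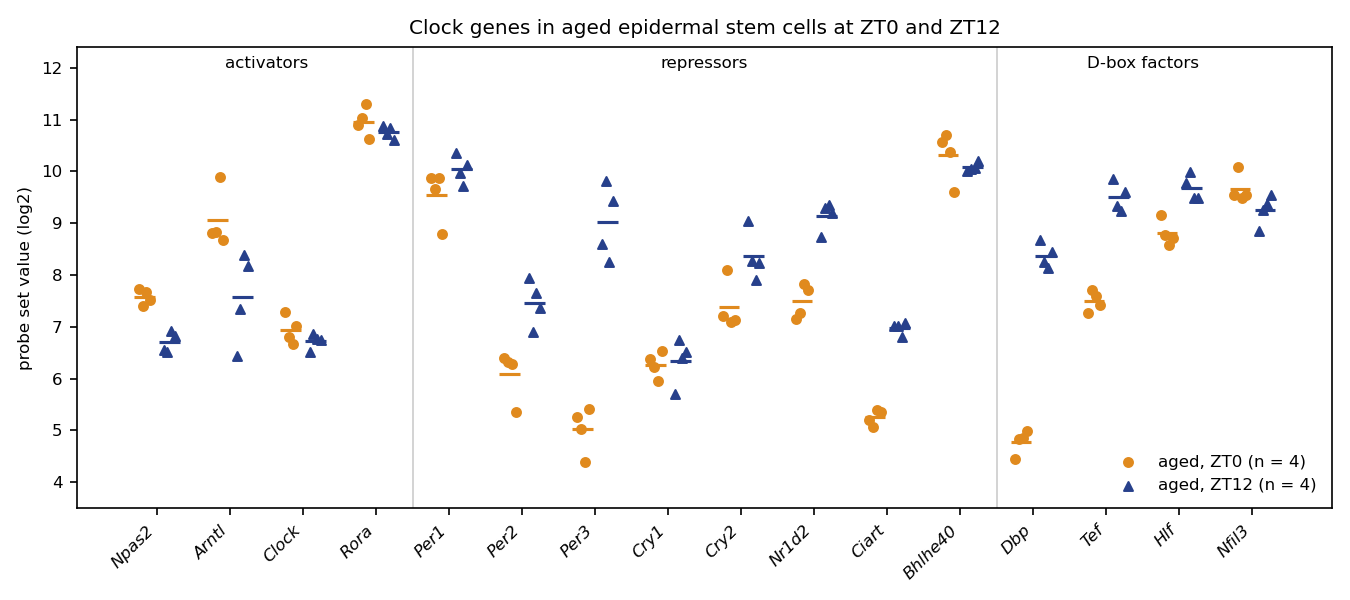
Probe set value (log2, vertical axis) of the 16 clock genes tested in each aged array at ZT0 (circles, n = 4) and ZT12 (triangles, n = 4), with horizontal bars for group means. Dbp and Per3 show the widest gaps, Npas2 and Arntl lie lower at ZT12, and the groups of Cry2 and of the 6 genes that did not pass the test overlap; probe sets of different genes are not on a common scale.

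Of the risen clock genes, Ciart, Tef and Per3 carry known clock elements within 250 bases before their starts. The sequences of that window are given 5′ to 3′ on the gene's strand for Ciart and Tef, with the E-box (CACGTG) in capitals, and for Per3, with the D-box (TTATGTAA) in capitals. Coordinates and sequences are those of RefSeq on GRCm38.p6.
Ciart, chr3:95882229-95882478, minus strand: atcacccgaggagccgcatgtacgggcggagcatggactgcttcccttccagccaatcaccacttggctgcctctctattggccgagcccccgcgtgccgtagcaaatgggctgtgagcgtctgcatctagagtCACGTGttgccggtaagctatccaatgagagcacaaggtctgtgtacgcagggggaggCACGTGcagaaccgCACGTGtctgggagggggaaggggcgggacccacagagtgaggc
Tef, chr15:81802423-81802672, plus strand: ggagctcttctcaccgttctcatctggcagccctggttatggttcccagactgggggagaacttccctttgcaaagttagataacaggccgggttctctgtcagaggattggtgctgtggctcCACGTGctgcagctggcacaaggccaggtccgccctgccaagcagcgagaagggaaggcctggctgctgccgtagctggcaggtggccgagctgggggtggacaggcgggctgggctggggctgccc
Per3, chr4:151044666-151044915, minus strand: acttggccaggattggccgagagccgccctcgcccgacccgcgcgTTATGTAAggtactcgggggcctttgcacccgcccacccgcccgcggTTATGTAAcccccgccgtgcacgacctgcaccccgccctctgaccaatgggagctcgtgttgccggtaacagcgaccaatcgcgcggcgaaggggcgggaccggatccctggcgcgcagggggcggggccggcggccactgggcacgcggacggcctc
Counted from the annotated start, the E-boxes of Ciart begin at -116, -58 and -44, that of Tef at -127, and the D-boxes of Per3 at -205 and -158. Of 7 risen clock genes with a promoter in the RefSeq table, 2 held an E-box within 250 bases before to 50 after the start. Of the tested genes with a promoter, 11.4% held an E-box and 1.52% a D-box (TTATGTAA, TTATGCAA or TTACGTAA, both strands), and of all 32851 promoters of that length 7.15% and 1.78%. Dbp, Cry2, Nr1d2 and Hlf had no match in that window, which says nothing of elements elsewhere.

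DNA replication genes made up the next group of risers. Of 44 tested genes of the Mcm helicase, origin licensing, polymerases, clamp and fork, 25 rose and none fell (1.15% and 0.788% of all genes), with a median change of 0.64 and a positive sign in all but Clspn (-0.0033). The mean of the 44 was 6.77 to 7.12 in the ZT0 arrays and 7.54 to 7.78 in the ZT12 arrays, with no overlap. Among the 18 helicase and licensing genes 12 rose (median 0.82), and among the 26 polymerase, clamp and fork genes 13 rose (median 0.60). Left-out arrays gave 17 to 28 risers among the 44, and the 8 arrays alone gave 7.

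Mcm2, a subunit of the replicative helicase, read 7.51, 7.53, 7.09 and 7.46 at ZT0 and 8.71, 9.04, 8.75 and 8.77 at ZT12. The groups lay more than a doubling apart, and the change was 1.42 (0.99 to 1.85; adjusted p = 5.51e-05), with 1.56 on the second probe set. Mcm6 rose from 6.73, 6.74, 6.18 and 6.72 to 7.89, 7.95, 7.89 and 7.69, a change of 1.26 (adjusted p = 4.04e-06). Mcm5 rose by 1.30, from 8.46 to 8.85 across the ZT0 arrays to 9.81 to 10.04 across the ZT12 arrays, and Mcm3 by 1.23. These 4 subunits passed the test in each of 26 alternatives. Mcm7 (0.81) and Mcm4 (0.69) also rose, named here after their values were seen, like the licensing factors Cdt1 (0.97) and Cdc6 (1.03), the Cdt1 inhibitor Gmnn (0.83) and the helicase partners Gins1 (1.18), Gins2 (1.06) and Cdc45 (0.49). The origin recognition genes Orc1 (0.30), Orc2 (0.17) and Orc6 (0.44), chosen in the same way, did not pass.

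At the fork, Timeless, which couples helicase and polymerase and is also studied as a clock gene, read 5.18, 5.23, 5.09 and 5.21 at ZT0 and 6.61, 6.79, 6.53 and 6.07 at ZT12. The ZT0 arrays lay within 0.14 of each other, and the change was 1.33 (0.89 to 1.76; adjusted p = 0.000168). Its partner Tipin rose by 1.04; Tipin and the clamp genes below were named after their values were seen. Chaf1b, of the histone chaperone CAF-1, rose from 6.35, 6.48, 6.08 and 6.40 to 7.24, 7.36, 7.23 and 7.15 (0.92, adjusted p = 9.20e-05). Pola2, a subunit of the primase-polymerase, rose by 0.65 and Rpa2, which binds single-stranded DNA, by 0.87 (adjusted p = 4.09e-04 and 0.00256). Pcna, the sliding clamp, had a change of 0.30 (adjusted p = 0.0732), and none of the 5 clamp loader genes Rfc1 to Rfc5 passed, with changes of 0.16 to 0.44.

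**Figure D2:**
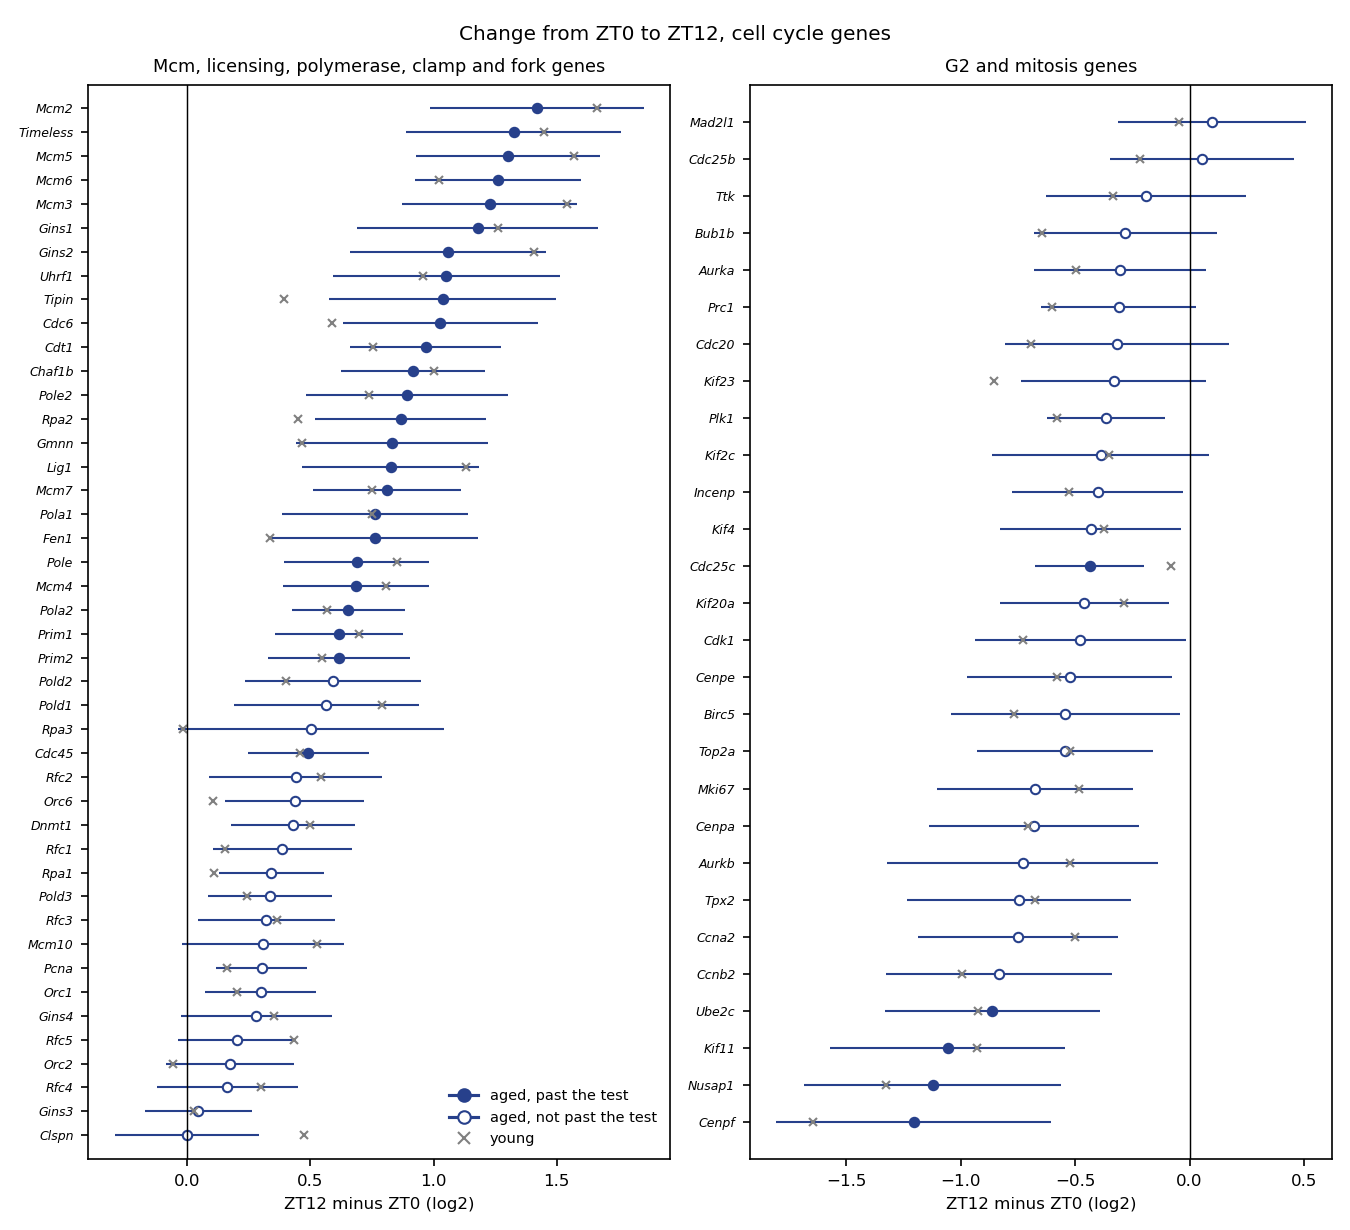
Change from ZT0 to ZT12 (log2, horizontal axis) of 44 DNA replication genes (left) and 28 G2 and mitosis genes (right) in aged cells, as circles with 95% confidence intervals, filled where the limma test was passed; grey crosses are the young changes. In aged cells 25 replication genes lie to the right of 0 with filled circles, and 5 mitosis genes to the left.

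E2F sites were common in the promoters of the replication genes. E2F was searched as TTTCCCGC, TTTGGCGC or TTTGGCGG on both strands, and it was found in 10 of the 18 risen replication genes that had a promoter in the table, in 7 of the 17 that did not pass, in 3.98% of all tested genes with a promoter, and in 2.10% of all promoters. The sequences of Mcm6 and Mcm5, 250 bases before their starts, have the matches in capitals. In Mcm5 the match is on the opposite strand and reads as its reverse complement.
Mcm6, chr1:128359706-128359955, minus strand: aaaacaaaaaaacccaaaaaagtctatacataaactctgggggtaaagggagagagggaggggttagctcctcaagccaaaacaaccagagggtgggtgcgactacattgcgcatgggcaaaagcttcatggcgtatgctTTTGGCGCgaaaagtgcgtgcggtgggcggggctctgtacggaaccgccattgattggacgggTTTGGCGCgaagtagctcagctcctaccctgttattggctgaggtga
Mcm5, chr8:75109259-75109508, plus strand: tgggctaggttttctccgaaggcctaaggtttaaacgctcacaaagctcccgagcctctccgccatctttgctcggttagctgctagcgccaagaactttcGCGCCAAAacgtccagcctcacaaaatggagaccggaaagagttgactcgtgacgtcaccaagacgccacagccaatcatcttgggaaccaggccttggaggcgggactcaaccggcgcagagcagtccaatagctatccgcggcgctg
The matches begin at -110 and -47 in Mcm6 and at -149 in Mcm5.

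Upstream regulators of S phase entry rose in part. Of 20 G1/S regulators tested, 6 rose and none fell (median 0.24), where 1.15% of all genes rose and 0.788% fell. The count was 4 without ZT12 replicate 2. E2f1, the activator of replication genes, read 6.41, 6.41, 6.42 and 6.62 at ZT0 and 7.58, 7.23, 7.06 and 7.34 at ZT12, a change of 0.84 with no overlap (0.58 to 1.09; adjusted p = 5.66e-05). Cdk2, the kinase of S phase entry, rose by 0.64, and the D-type cyclins Ccnd1 and Ccnd2, which act on the Rb proteins, by 0.57 and 0.47 (adjusted p = 0.00102, 0.00123 and 0.00567). Ccne2, a partner of Cdk2, and Rbl1, of the Rb family, also rose (0.98 and 0.64, named after their values were seen). The Cdk inhibitors Cdkn1a (-0.12), Cdkn1b (0.36), Cdkn1c (0.15) and Cdkn2c (-0.05) did not pass, and were likewise chosen late. The 8 arrays alone left 1 riser in this group.

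No gene of nucleotide synthesis was called. None of 12 nucleotide synthesis genes passed the adjusted test, 8 had an unadjusted p under 0.05, all 12 were positive, and the median was 0.36. Of all 12823 genes 1.15% rose, 1817 had an unadjusted p under 0.05 and 6524 were positive. Thymidine kinase Tk1 had a change of 0.72 (adjusted p = 0.106), and the purine enzyme Ppat of 0.62 (adjusted p = 0.0552). Mthfd1l, a mitochondrial enzyme that makes formate for purines and thymidylate, was the exception among 7 one-carbon and serine genes. It read 4.59, 4.89, 4.26 and 4.67 at ZT0 and 5.91, 6.13, 6.44 and 6.59 at ZT12, a rise of 1.67 or 3.18-fold (adjusted p = 2.54e-09).

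DNA repair lists showed single members that rose, where 1.15% of all genes rose and 0.788% fell. Ung, the uracil-DNA glycosylase of base excision repair, read 7.42, 7.47, 6.72 and 7.30 at ZT0 and 8.90, 8.52, 8.40 and 8.34 at ZT12, a change of 1.31 with no overlap (adjusted p = 5.51e-05). It was the one riser among 16 mismatch and excision repair genes. Chek1, the kinase that guards stalled forks, rose by 1.25 (adjusted p = 5.73e-04), from 5.16, 4.81, 4.49 and 4.84 to 5.92, 6.72, 6.00 and 5.67, alone among 14 checkpoint and end joining genes. Its size rested on the probe set: dimmer ones for Chek1 had changes of 0.78, 0.58, 0.18 and -0.05. None of 16 homologous recombination and Fanconi genes passed (median 0.13, 2 with an unadjusted p under 0.05, as had 1817 of all 12823 genes).

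Genes of G2 and mitosis lay lower at ZT12. Of 28 tested, 5 fell (Cenpf, Nusap1, Kif11, Ube2c and Cdc25c) and none rose, 19 had an unadjusted p under 0.05, and the median was -0.47. Over all 12823 genes 0.788% fell and 1.15% rose, and 1817 had an unadjusted p under 0.05. The mean of the 28 was 6.97 to 7.19 in the ZT0 arrays and 6.37 to 6.64 in the ZT12 arrays, and in 15 of the genes every ZT12 array lay below every ZT0 array, as in 2.18% of all genes. Kif11, the kinesin that separates spindle poles, read 7.17, 7.11, 7.20 and 7.13 at ZT0 and 6.17, 5.95, 6.47 and 5.80 at ZT12. It fell by 1.06 (adjusted p = 0.0169), and its second probe set by 0.91. Cenpf, a kinetochore protein, fell by 1.20, from 7.92, 7.52, 8.01 and 8.14 to 6.83, 6.49, 6.83 and 6.62, and Nusap1, a spindle protein, by 1.12 (adjusted p = 0.02 each). Cdc25c, the phosphatase that activates Cdk1, fell by 0.44 and Ube2c, of the anaphase-promoting machinery, by 0.86 (adjusted p = 0.0379 each; Ube2c named after its value was seen). Mki67 (-0.67), Ccna2 (-0.75) and Top2a (-0.55) did not pass (adjusted p = 0.089, 0.0576 and 0.139), and were named as usual markers of dividing cells after their values were seen. The count was fragile: no member was called without ZT0 replicate 3 or without ZT12 replicate 4, 1 without ZT0 replicate 1 and 2 without ZT12 replicate 2. Kif11 had an adjusted p of 0.0653 without ZT0 replicate 3, 0.0728 without ZT12 replicate 2 and 0.0779 without ZT12 replicate 4, with changes of -1.04, -1.01 and -0.96.

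The CHR element (TTTGAA, both strands), known from cell cycle genes that are repressed in G1, was searched after the data had been seen. It lay in the promoters of 17 of 22 mitosis genes with an entry in the table, in 3 of the 4 such genes that fell, in 14.4% of all tested genes with a promoter, and in 17.9% of all promoters. That of Kif11, printed for the 250 bases before its start, begins at -19 and reads as its reverse complement, in capitals.
Kif11, chr19:37376132-37376381, plus strand: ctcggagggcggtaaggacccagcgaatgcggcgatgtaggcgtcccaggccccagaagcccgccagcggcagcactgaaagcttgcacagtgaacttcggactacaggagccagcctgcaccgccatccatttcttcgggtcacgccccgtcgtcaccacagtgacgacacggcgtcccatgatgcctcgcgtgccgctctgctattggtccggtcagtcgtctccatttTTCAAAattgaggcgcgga

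Over the full day, the 25 risen replication genes were highest at ZT12 in 19 cases, at ZT16 in 5 and at ZT8 in 1 by their aged group means, and lowest at ZT0 in 23. The choice of these genes by the ZT12 and ZT0 arrays bears on that count. The young change from ZT0 to ZT12 was not used to choose these genes. Young arrays did enter the estimate of spread and the choice of probe sets, and the lists were chosen with earlier results known. In young cells the same 25 were highest at ZT12 in 23 cases and at ZT20 in 2, and lowest at ZT0 in 17. The mean of the 44 replication genes was 7.65 ± 0.10 at ZT12 and 7.55 ± 0.14 at ZT16 in aged cells, and 7.65 ± 0.18 and 7.12 ± 0.08 in young cells (SD, n = 4); the difference at ZT16 was not tested. The 28 mitosis genes had their lowest aged mean at ZT12 (6.50 ± 0.13) and their highest at ZT0 (7.03 ± 0.11), with a wide spread at ZT4 (6.60 ± 0.60). Their lowest young mean was at ZT16 (6.38 ± 0.13) and their highest at ZT20 (7.09 ± 0.09). Young means at ZT12 and ZT0 were 6.46 ± 0.21 and 7.08 ± 0.38.

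**Figure D3:**
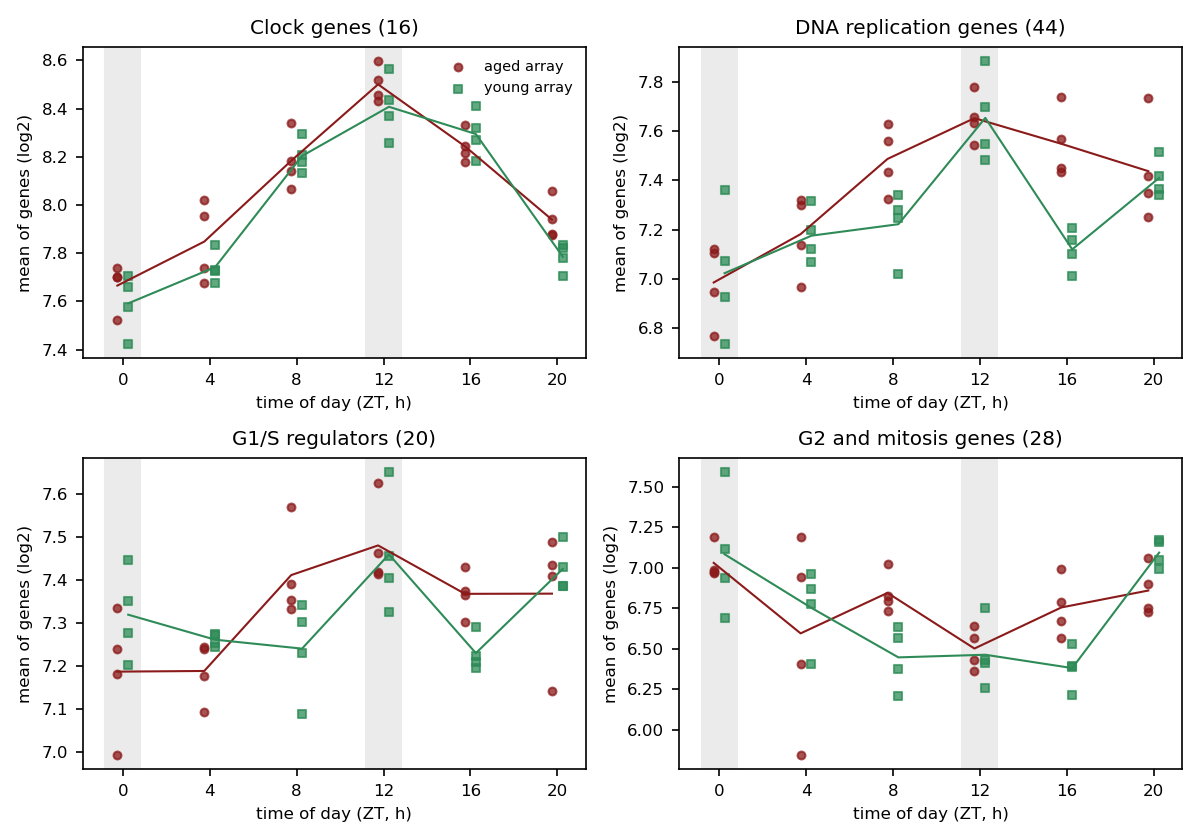
Mean of the tested genes of 4 groups (log2, vertical axis; the number of genes is in brackets) by time of day (ZT in hours) in each aged array (circles) and young array (squares), with lines through the group means and the ZT0 and ZT12 arrays shaded. Clock and replication genes rise from ZT0 to ZT12 at both ages without overlap between those times, and mitosis genes are lower at ZT12, without overlap in aged arrays.

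In several of the largest falls outside these groups, ZT0 replicate 4 lay at the ZT12 level. Prnd, the prion-like protein doppel, had the largest fall, 2.01 (adjusted p = 2.12e-04): it read 7.07, 6.84, 6.76 and 3.97 at ZT0 and 4.53, 3.84, 4.28 and 3.96 at ZT12. ZT0 replicate 4 thus lay at the ZT12 level, and young arrays read between 3.87 and 4.19 at both times. The linker histone H1f2 fell by 1.53 (adjusted p = 0.00988) with 10.83, 11.09, 11.03 and 8.61 at ZT0 against 10.14, 8.44, 8.83 and 8.04 at ZT12. Creb5, a CREB-family transcription factor, fell by 1.53 and Gpr35, an orphan G protein-coupled receptor, by 1.48 (adjusted p = 0.0195 and 0.0208), in both with ZT0 replicate 4 among the ZT12 values. Krt23, an epithelial keratin, fell by 1.13 (adjusted p = 0.0439), with ZT0 replicate 4 at 5.10 and ZT12 replicate 1 at 6.90 on the other group's side.

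In 4 of the 12 largest falls, those of Ttc9, Zc3h12c, Arntl and Cenpf, the groups did not overlap. Ttc9, a tetratricopeptide repeat protein, read 7.81, 7.75, 7.08 and 7.41 at ZT0 and 6.04, 5.70, 5.22 and 5.36 at ZT12, a fall of 1.93 (adjusted p = 1.28e-09), and young cells fell by 2.72. Zc3h12c, of the Regnase family of RNA-binding proteins, fell by 1.45 (adjusted p = 0.0241), with ZT12 replicate 1 the lowest array at 4.99. Marchf3, a ubiquitin ligase, and Megf11 fell by 1.30 and 1.21 (adjusted p = 0.0313 and 0.0188), with ZT12 replicate 1 above ZT0 replicate 4. Among the 12 largest rises, Apol8, an apolipoprotein L, was the one with overlapping groups: ZT0 replicate 4 was at 6.57 and ZT12 replicate 1 at 5.44 (1.27, adjusted p = 0.0444).

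That pattern was general among the fallers. In 63 of the 101 genes that fell, the ZT0 array nearest to the ZT12 group was replicate 4, and in 51 the ZT12 array nearest to ZT0 was replicate 1. In 47 of the 101 the groups overlapped, and in 42 of those 47 ZT0 replicate 4 was the lowest ZT0 array. Among the 147 risers, ZT0 replicate 4 was the nearest in 70 and ZT12 replicate 1 in 72. Markers of the upper follicle and sebaceous gland had a mean of 9.92 in ZT0 replicate 4 against 9.38 to 9.64 in the other 3 ZT0 arrays, and suprabasal markers 9.01 against 8.73 to 8.81; the part of these in the result was not tested. The calls of Prnd held without any single array, while those of H1f2, Creb5, Gpr35, Zc3h12c, Marchf3, Megf11 and Krt23 were each lost without ZT0 replicate 3 (adjusted p of 0.0859 to 0.328) and without ZT0 replicate 1 (0.0566 to 0.141). All but Zc3h12c were lost without ZT12 replicate 2 (0.068 to 0.262), and all but Creb5 without ZT12 replicate 4 (0.0549 to 0.183). H1f2 and Krt23 were lost without ZT0 replicate 2 (0.0582 and 0.0883), Creb5 and Zc3h12c without ZT12 replicate 1 (0.0557 and 0.0865), and Marchf3 and Krt23 without ZT12 replicate 3 (0.0618 and 0.142).

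**Figure D4:**
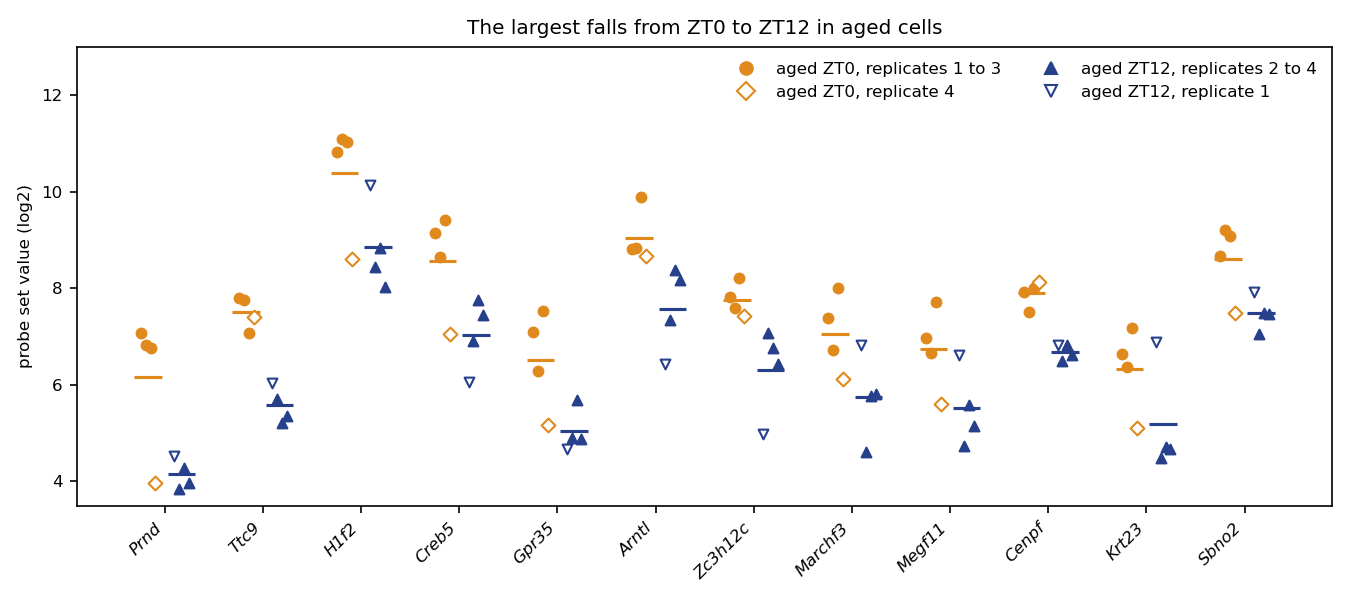
Probe set value (log2, vertical axis) of the 12 genes with the largest called falls in each aged array at ZT0 (orange) and ZT12 (blue), with bars for group means; open diamonds mark ZT0 replicate 4 and open inverted triangles ZT12 replicate 1. In Prnd, H1f2, Creb5, Gpr35, Krt23 and Sbno2 the open diamond lies at the level of the ZT12 arrays, and in Ttc9, Arntl, Zc3h12c and Cenpf the groups do not overlap.

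The same contrast was then read in young cells, to ask whether age changed it. In young cells 196 genes were higher (1.53%) and 225 lower (1.75%), together 421 or 3.28%. That balance turned with the scaling: 341 were higher and 145 lower with arrays centred on their median, and 274 and 196 with cyclic loess. Of the 248 genes called in aged cells, 196 changed with the same sign in young cells and 75 were called at both ages, 55 higher and 20 lower, with none called in opposite directions. Those 75 are 30.2% of the aged calls and 17.8% of the young calls. The clock group had 8 risers and 2 fallers in young cells, with 8 of the 10 aged calls shared. The replication genes had 23 risers (median 0.54), 20 of them among the aged 25, and the mitosis genes 8 fallers (median -0.58), 4 of them among the aged 5. No member of these groups passed the test of the difference between the ages, in which 10 of 12823 genes (0.078%) passed, 7 with a more positive aged change (0.0546%) and 3 with a more negative one (0.0234%). Per3 rose by 4.00 in aged and 3.29 in young cells, and the difference of 0.71 had an interval of -0.28 to 1.69. For Dbp the difference was -0.13 (-0.82 to 0.56), for Arntl -0.74 (-1.72 to 0.25) and for Cry1 0.77 (0.055 to 1.49, adjusted p = 0.41). On the second Arntl probe set the changes were -0.98 in aged and -1.64 in young cells, against -1.47 and -0.73 on the first. The sign of the Arntl difference thus rested on the probe set.

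In 7 of the 10 genes whose change differed between the ages, the aged change was the more positive. The clearest were Wipf3, which binds WASP proteins of the actin machinery, and Frmd4a, a FERM domain scaffold, the only ones among the 8 named by rule that passed in each of 24 alternatives. Wipf3 read 7.08, 7.02, 6.62 and 6.99 in aged cells at ZT0 and 6.96, 7.64, 7.03 and 7.44 at ZT12. In young cells it read 8.08, 7.85, 7.91 and 7.93 at ZT0 and 7.03, 7.06, 7.26 and 6.90 at ZT12. So the young level fell without overlap while the aged groups overlapped and stayed near the young ZT12 level, and the difference of the changes was 1.22 (0.80 to 1.63; limma, adjusted p = 0.00698). Frmd4a fell in young cells by 0.99 and had an aged change of 0.06 (-0.21 to 0.33), a difference of 1.05 (adjusted p = 0.0122). Elmod1, a GTPase-activating protein for Arf-family GTPases, fell in young cells by 1.41 with an aged change of -0.11, a difference of 1.31 (adjusted p = 0.0163). Zfp12, a zinc finger protein, and Spsb3, a SOCS-box protein, had differences of 0.71 and 0.89 (adjusted p = 0.0163 and 0.0346). Cc2d2a, of the ciliary transition zone, had a difference of 0.99 (adjusted p = 0.0399), with a young change of -0.74 and an aged change of 0.26.

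Fst, Sbno2 and Ppp1r10 were the genes called in aged cells whose change also differed from the young one. Fst, follistatin, the secreted inhibitor of activin, read 10.33, 10.32, 10.41 and 10.31 in aged cells at ZT0 and 9.35, 9.08, 10.06 and 9.49 at ZT12. All aged ZT12 arrays were lower (-0.85, adjusted p = 0.00428), while young cells had a change of 0.44 and the difference was -1.29 (adjusted p = 0.0163). On the second Fst probe set both changes were smaller, -0.54 in aged and 0.12 in young cells. Ppp1r10, a nuclear targeting subunit of protein phosphatase 1, rose in aged cells by 0.86 (adjusted p = 0.00518), from 8.13, 8.56, 7.97 and 8.97 to 9.73, 9.15, 8.99 and 9.20, with a difference of 1.26 (adjusted p = 0.0346). Sbno2, a transcriptional coregulator in inflammatory signalling, read 8.67, 9.21, 9.08 and 7.48 in aged cells at ZT0 against 7.93, 7.05, 7.48 and 7.47 at ZT12, and 6.50 to 7.74 in young cells over both times. Its difference was -1.5 (adjusted p = 0.0346), and replicate 4 again was the ZT0 array at the other groups' level. Aqp3, the glycerol and water channel of the basal epidermis, rose in young cells by 0.65 and had an aged change of -0.31, a difference of -0.96 (adjusted p = 0.0391). Cc2d2a and Aqp3 were named after their values were seen. The count of genes whose change was more positive in aged cells went from 7 to 2 without ZT0 replicate 3 or ZT12 replicate 2 of the aged mice, to 3 when the array left out was replicate 1 at aged ZT0, replicate 4 at aged ZT12 or replicate 2 at young ZT12, to 4 without young ZT0 replicate 3, to 11 without young ZT12 replicate 3, to 49 without aged ZT0 replicate 4 and to 111 without aged ZT12 replicate 1. The count of 3 genes with a more negative aged change was 41 and 56 without those last 2 arrays, and 0 to 5 without any other array.

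**Figure D5:**
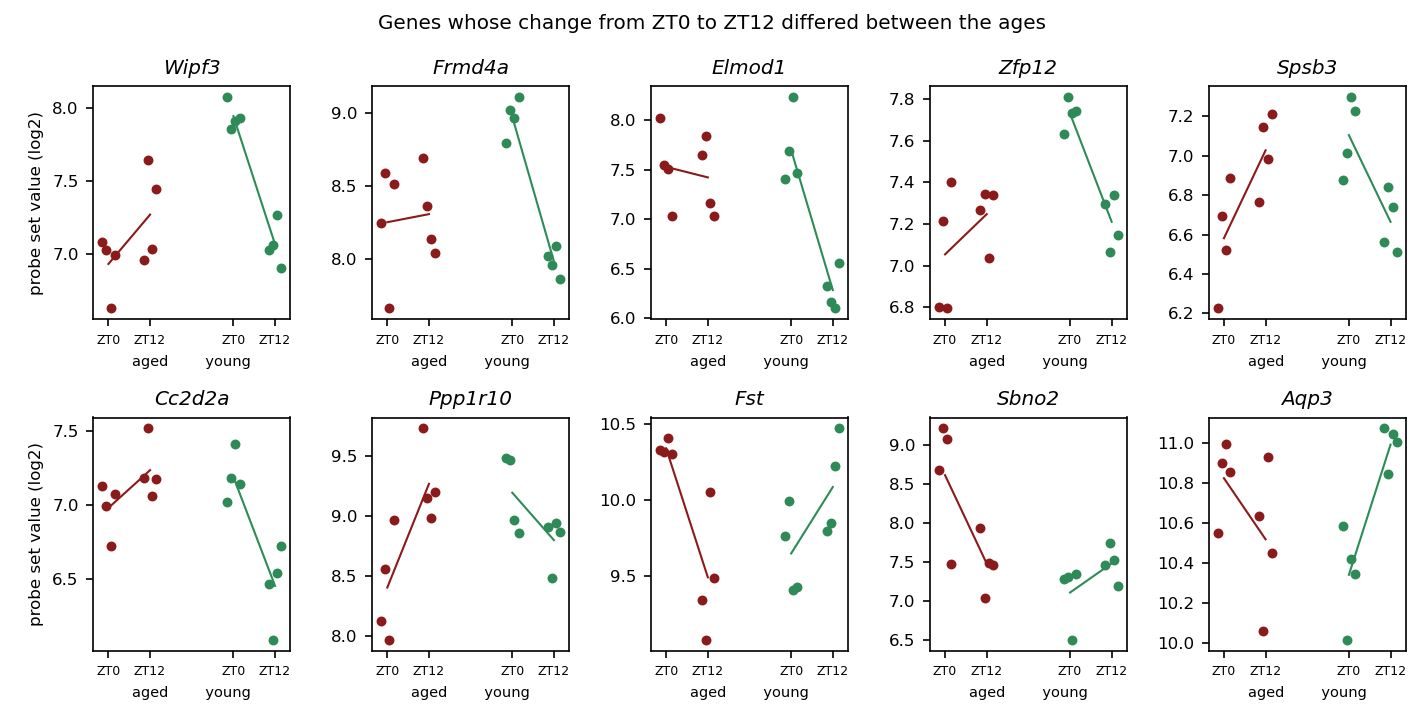
Probe set value (log2, vertical axis, scaled per gene) of the 10 genes whose change from ZT0 to ZT12 differed between the ages, in each aged (red) and young (green) array, with lines through the group means. The young lines slope down in Wipf3, Frmd4a, Elmod1, Zfp12, Spsb3, Cc2d2a and Ppp1r10, of which Elmod1 (-0.11) alone slopes down in aged cells, and Fst, Sbno2 and Aqp3 slope down in aged and up in young cells.

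Genes induced by glucocorticoids, the adrenal hormones with a daily surge, were not called in aged cells. None of 15 tested passed (median 0.05, and 6 with an unadjusted p under 0.05), against 6 risers in young cells (median 0.34). None passed the test of the difference, as 0.078% of all genes did. Of all 12823 genes, 1.93% were called in aged cells and 1.53% rose in young cells. In aged cells 1817 of them had an unadjusted p under 0.05. No call among 15 genes is near the aged share. Tsc22d3, a classical target, read 8.23, 7.60, 8.78 and 7.27 at ZT0 and 9.66, 9.04, 8.10 and 9.14 at ZT12 in aged cells, with overlap (1.01, adjusted p = 0.175). It rose by 1.67 in young cells (adjusted p = 0.0063). Fkbp5, a chaperone of the receptor named after its values were seen, had a change of 0.92 in aged cells (adjusted p = 0.254) and rose by 2.84 in young cells, and the difference of -1.91 did not pass (adjusted p = 0.175).

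Growth and stress pathways held calls in some lists and none in others, where 1.15% of all genes rose and 0.788% fell. Ribosome biogenesis had 3 risers of 20 (median 0.20): the RNA polymerase I subunits Polr1b (0.73) and Polr1a (0.43), and Wdr12 (0.49), which acts in the large ribosomal subunit (adjusted p = 0.00479, 0.0356 and 0.0229). That count was 0 without ZT0 replicate 3, 1 without ZT12 replicate 2 or 3, 2 without ZT0 replicate 1 or 2 or ZT12 replicate 4, and 6 without ZT12 replicate 1. The unfolded protein response had 2 fallers of 19 (median -0.27), the chaperone Hsp90b1 (-0.37) and Creld2 (-0.57), both of the endoplasmic reticulum (adjusted p = 0.0187 and 0.0321). The mean of the 19 was 9.18 to 9.26 at ZT0, 8.67 in ZT12 replicate 1 and 9.10 to 9.14 in the other ZT12 arrays. Without that array Hsp90b1 and Creld2 had changes of -0.41 and -0.72 and were called. Neither was called without ZT0 replicate 2, ZT12 replicate 2 or ZT12 replicate 4, and Creld2 alone lost its call without ZT0 replicate 1 or 3 or ZT12 replicate 3. Of 15 p53 targets the death receptor Fas alone changed: it read 7.02, 7.08, 6.76 and 5.90 at ZT0 and 6.23, 5.76, 5.81 and 5.77 at ZT12 (-0.80, adjusted p = 0.00227), with ZT0 replicate 4 below ZT12 replicate 1. Acadl, which begins the oxidation of long-chain fatty acids, fell by 0.54 without overlap (adjusted p = 8.76e-04), alone of 15 fatty acid genes. Pdk1, which restrains pyruvate dehydrogenase, rose by 0.43 and the lysosomal protease Ctsl by 0.46, each alone of 14 (adjusted p = 0.0292 and 0.0251). The call of Pdk1 was lost without ZT0 replicate 1 or 3 or ZT12 replicate 2, and that of Ctsl without ZT0 replicate 1 or 2 or ZT12 replicate 3 or 4. None passed among 24 oxidative phosphorylation genes (median 0.0043), 12 heat shock chaperones, 17 immediate early genes, 12 interferon-stimulated genes, 18 genes of stressed keratinocytes, 16 Nrf2 targets and 14 genes of cholesterol synthesis. The same held for 4 clock kinases and ubiquitin ligases, 7 direct clock outputs, 15 basement membrane, 12 Notch, 20 Wnt and 14 EGFR pathway genes. With 1.93% of all genes called, no call in a list of 4 to 24 genes is near the share over all genes. Fst was the one call among 22 genes of TGF-beta and BMP signalling. The immediate early gene Btg2 had a change of -0.59 on the probe set used (limma, adjusted p = 0.114). On its second probe set the change was -0.81 (limma, unadjusted p = 8.36e-05).

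Among markers of the cell types a preparation could hold, Lhx2, a bulge stem cell factor, fell by 0.83 (adjusted p = 0.0233), from 4.82, 4.18, 4.51 and 5.05 to 4.07, 3.60, 3.65 and 3.94, near the dim limit. That call was lost without ZT0 replicate 1, 3 or 4 or ZT12 replicate 2 or 3. The mean of the 11 bulge markers was 6.57 to 6.92 at ZT0 and 6.48 to 6.61 at ZT12. Fasn, a fatty acid synthase counted with the sebaceous markers, rose by 0.59 (adjusted p = 0.0107), while the mean of those 9 markers overlapped between the times. Without ZT0 replicate 3 or ZT12 replicate 2 or 4 Fasn was not called. No other cell type marker passed: none of 11 suprabasal, 6 fibroblast, 6 Langerhans and myeloid or 5 T cell genes. T cell markers had a mean of 5.11 to 5.36 at ZT0 and 4.86 to 5.07 at ZT12, without overlap, and all 5 tested were negative (-0.44 to -0.21); the part of this in the falls above was not tested.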

How the data were processed

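The authors deposited log2 values per probe set, made with RMA per the submitters' processing notes. No RMA version is named in the sources used here, nor which arrays were normalised as a set. Per the labels, TRizol extracts were amplified from 25 ng of RNA in 17 cycles. Of 45141 probe sets, 28898 carry 1 gene symbol, 551 several and 15692 none; 28689 of the first were matched to RefSeq (GRCm38.p6). The probe set with the highest mean stood for each of 17097 genes. Genes in the lowest 25% of means were left out (limit 3.96), which leaves 12823.

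All 48 arrays entered 1 limma fit (limma 3.58.1, R 4.3.3; lmFit, eBayes) with a mean per age and time. The contrasts were aged ZT12 minus ZT0, the same in young, and their difference, 2-sided, with Benjamini-Hochberg adjustment over all genes and a threshold of 0.05. The script was tested on simulated data. The members and the 47 gene lists (658 genes, 595 measured, 543 tested) were chosen with earlier results of these data known, and lists were described by counts and medians, with no test. Named genes were all clock list members, the 12 largest called rises and falls, up to 4 members per list and 8 differing genes with the smallest p, predicted genes passed over. Genes outside this rule are said to be so. The mice are separate animals per the series' design, and for arrays their number limits the precision. Replicate numbers were not taken as pairs in the main fit. Residuals of aged ZT0 and ZT12 arrays with the same number had correlations of -0.057, -0.093, 0.227 and 0.177, too few to decide on pairing. Between arrays of different groups in the whole series the mean was -0.00074 for the same number and 0.00091 for different numbers. Alternatives were array weights, centring, cyclic loess, trend and robust eBayes, other dim filters, the mean of probe sets, a replicate block, the aged or the 8 arrays alone, a 1.5-fold minimum and each array left out.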

Additional observations from a re-analysis of the deposited data

Results flagged for a closer look

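Within groups of 4, an array was singled out when its gap to the next exceeded Dixon's 95% critical value for 4 samples. This was so in 13 of 118 groups looked at, where chance flags about 1 in 20. At ZT0 in aged cells, replicate 4 stood apart low for Per2 (5.35), Prnd (3.97) and H1f2 (8.61), and high for Apol8 (6.57) and E2f1 (6.62). Replicate 3 stood apart low for Mcm2 (7.09) and Mcm6 (6.18) and high for Arntl (9.89), and replicate 2 stood apart high for Cry2 (8.10) and Nfil3 (10.1). At ZT12, replicate 1 stood apart high for Krt23 (6.90) and Fas (6.23), and replicate 2 high for Mcm2 (9.04).

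The change from ZT0 to ZT12 differed between aged and young cells, by limma's test of the difference, for 10 genes. The aged minus young difference was 1.22 for Wipf3, 1.05 for Frmd4a, 1.31 for Elmod1, 0.71 for Zfp12, 1.26 for Ppp1r10, 0.89 for Spsb3 and 0.99 for Cc2d2a. It was -1.29 for Fst, -1.5 for Sbno2 and -0.96 for Aqp3.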

How the results depend on the processing

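No named gene changed sign where it was called, and of 53 called, 16 were called in every alternative run and 34 were lost when the 8 arrays were fitted alone; 32 of 144 uncalled ones passed in at least 1. The aged count of 147 higher and 101 lower was 415 and 288 with array weights, 96 and 48 with the 24 aged arrays alone and 21 and 11 with the 8 arrays alone. With 1 array left out it ranged from 63 to 435 and from 27 to 278. The replicate block gave 160 and 107, with 244 of the 248 shared, so the pairing of numbers changed little. Young counts of 196 and 225 became 341 and 145 with arrays centred on their median, 126 and 119 with a change of at least 1.5 times, and 133 to 226 and 112 to 306 with 1 array left out. The difference counts of 7 and 3 became 30 and 15 with array weights and 2 to 111 and 0 to 56 with 1 array left out; the second was 28 with centring, 9 with cyclic loess and 1 when probe sets of a gene were averaged. Clock genes gave 5 higher with the 8 arrays alone (8 to 8 with 1 array left out) and 1 lower with array weights or the 8 arrays alone (1 to 3). Replication genes gave 7 with the 8 arrays alone (17 to 28), G1/S regulators 1 (4 to 7), and mitosis genes 9 lower with cyclic loess and 2 with the 24 aged arrays alone (0 to 6). Fewer arrays leave fewer degrees of freedom. The residual SD had a mean of 0.207 in aged ZT0 and 0.239 in aged ZT12 arrays, against 0.188 over all 48 arrays. The spread pooled over all arrays may thus be smaller than that of the groups compared. The cause of the shifts was not tested.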

Other observations

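The genes below were picked from the calls outside the lists after their values were seen, so they carry no count of like genes that were not called. Wdhd1, which links helicase and polymerase alpha, rose by 1.20 (limma, adjusted p = 2.21e-04), from 6.15, 6.50, 5.80 and 6.37 at ZT0 to 7.62, 7.46, 7.44 and 7.11 at ZT12 with no overlap. Dtl, a substrate receptor that removes Cdt1, rose by 0.82, Rnaseh2b, which removes ribonucleotides from DNA, by 0.73, the chromatin remodeller Hells by 0.61 and Tfdp1, the partner of E2F, by 0.52. Topbp1, which activates the ATR checkpoint, rose by 0.70, Atad5, which unloads the clamp, by 0.74 and Hat1, which acetylates new histone H4, by 0.42. Of genes that act in mitosis and cytokinesis, Aspm fell by 1.04, Espl1, the separase, by 0.71, the citron kinase Cit by 0.77 and Prr11 by 0.62.

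Histone genes were counted after H1f2 had been seen among the largest falls. Of 13 tested, 5 fell (H1f2, H1f4, H2bc22, H4c8 and H3c1), none rose and 11 were negative, with a median of -0.36. Of all genes tested, 0.788% fell, and this set was put together because H1f2 had fallen. In young cells the median was -0.08 and none was called, and no difference between the ages passed (for H1f2 -1.96, adjusted p = 0.0969). H1f4 read 11.24, 10.81, 11.08 and 10.17 at ZT0 and 10.88, 9.47, 9.65 and 9.57 at ZT12 (-0.93, adjusted p = 0.0138). H2bc22 fell by 0.55, H4c8 by 0.52 and H3c1 by 0.33, each without overlap. The count was 7 without ZT0 replicate 4 and 6 without ZT12 replicate 1. It was 1, 4 and 0 without ZT0 replicates 1, 2 and 3, and 0, 2 and 1 without ZT12 replicates 2, 3 and 4. These genes have near-identical copies whose transcripts share sequence, so the assignment to 1 copy is uncertain.

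Cxcl14, a chemokine made by keratinocytes, read 11.37, 11.21, 11.18 and 11.21 at ZT0 and 10.01, 10.52, 9.86 and 10.50 at ZT12, a fall of 1.02 without overlap, and it fell by 1.24 in young cells. Picked in the same way, the glutamine carrier Slc1a5 rose by 0.76, the nucleolar protein Nop16 by 0.57 and spermidine synthase Srm by 0.65, with young changes of 0.20, 0.16 and 0.27 that did not pass and no difference between the ages that passed. Atg14, of the autophagy kinase complex, rose by 0.85, Yap1, the Hippo effector, by 0.32 and the ubiquitin protease Usp22 by 0.43. The integrin Itga5 fell by 0.92 and tissue plasminogen activator Plat by 1.00. In both the groups overlapped, with ZT0 replicate 4 the lowest ZT0 array, at 4.05 and 6.62.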
